A study of Homo sapiens with 4 samples.

Results

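The MCM helicase and its G1/S partners were examined for H3K14ac, acetylation of lysine 14 on histone H3, in MKN45 cells, an established human gastric cancer line. The 10 genes were MCM2, MCM3, MCM4, MCM5, MCM6, MCM7, E2F1, PCNA, CDC6 and CDT1, out of 20037 protein-coding genes. A gene was counted as marked when a called region overlapped its span, extended by 1 kb on both sides, by at least 1 bp. The series had 4 samples: cells with the control hairpin shNT and cells with the hairpin shNIT2, directed at the omega-amidase gene NIT2 of glutamine metabolism, each giving 1 H3K14ac library and 1 input library. No other treatment is named for these groups, and the sources used here do not say whether the hairpin lines were clones or pools. The series' title ties NIT2 to oxidative phosphorylation and fluorouracil resistance, and the comparison is between H3K14ac with and without the NIT2 hairpin. Values came from 1 peak list per H3K14ac library. With 1 library a group, the differences were not checked by replicates and no test was possible, and values from the input libraries were not used here.

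MCM2 to MCM7 form the ring-shaped hexamer that unwinds DNA at replication forks. In G1 phase CDC6 and CDT1 load this ring onto origins that the origin recognition complex has bound, a step called licensing. E2F1 is a transcription factor that is held by the retinoblastoma protein until cyclin-dependent kinases release it, and it activates genes of DNA synthesis, the MCM genes among them. PCNA is the sliding clamp that keeps DNA polymerases on their template. H3K14ac is a mark of active promoters and is written by several acetyltransferase complexes.

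The libraries differed in depth, which touches every comparison between them. The lowest background of a list, the genome-wide floor, was 0.278 fragments in the shNT list and 2.48 fragments in the shNIT2 list, a ratio of 8.93. A region rested on a median of 6 fragments at its summit in the shNT list (quartiles 4 and 9) and on 22 in the shNIT2 list (quartiles 16 and 31). The shNT list was nevertheless the longer one, with 39876 regions against 28187, at the same lowest −log10 q of 1.30. No shNT region had fewer than 3 fragments and no shNIT2 region fewer than 9. The total number of reads is unknown, and the part of depth in the differences between the lists was not tested. The epithelial markers EPCAM, CDH1, KRT8, KRT18, KRT19, CLDN4, CEACAM5 and MUC1 were marked in 8 of 8 cases in the shNIT2 list and 5 of 8 in the shNT list. Of 12 fibroblast, immune and neuron markers, 5 were marked in the shNIT2 list and 4 in the shNT list, none above 4.92-fold. Over all protein-coding genes the shares were 47% and 28.5%, so these 12 markers were marked about as often as any gene. The immune markers and the neuron markers were each marked in 2 of 4 cases in both lists.

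All 10 genes carried a region in the shNIT2 list, where 47% of all protein-coding genes did. The 10 genes were chosen with earlier results of these data known, so the contrast is a description. The shNT list marked 4 of the 10, MCM5, MCM7, CDC6 and CDT1, and 28.5% of all genes. MCM2, MCM3, MCM4, MCM6, E2F1 and PCNA were thus marked in the shNIT2 list alone, a state shared by 27.4% of all genes, and none of the 10 was marked in the shNT list alone. The 4 marked in both lists compare with 19.6% of all genes. Long genes catch more regions, and the 10 spans ran from 5470 bp (CDT1) to 54892 bp (MCM5). Among the 10789 genes with spans in this range, 46.5% were marked in the shNIT2 list, 20.2% in the shNT list and 32.5% in the shNIT2 list alone. In this range 14% were marked in both lists. Of all genes marked in the shNIT2 list, 41.7% were also marked in the shNT list, beside 4 of the 10. In the span range this held for 1508 of the 5019 genes marked in the shNIT2 list, a lower share.

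**Figure D1:**
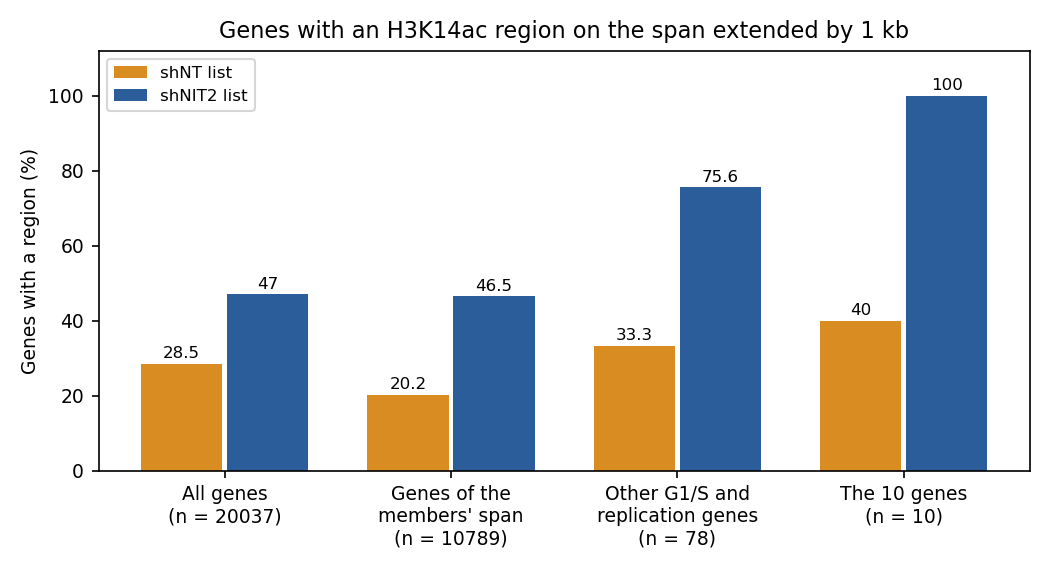
Bars give the percentage of genes with a called H3K14ac region on the span extended by 1 kb, in the shNT list (orange) and the shNIT2 list (blue), for all protein-coding genes, for genes with spans in the range of the 10 genes, for 78 other G1/S and replication genes, and for the 10 genes themselves. Each bar is 1 library, without error bars. The blue bars rise from 47% of all genes to 75.6% of the 78 and 100% of the 10, and the orange bars lie between 20.2% and 40%. The 78 and the 10 were chosen with earlier results of these data known.

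Each of the 8 genes with a listed start had the summit of its strongest shNIT2 region just downstream of such a start. For PCNA this was the inner start, at 5119958, far inside the gene from the outer start at 5126622. Start sites and strands were taken from a RefSeq promoter table (GRCh38.p14, the assembly of hg38), which held 8 of the 10 genes. MCM4 and MCM5 are measured from the end of the gene with the lower position. Counting from the start as base 0, the summit of the strongest shNIT2 region near a start lay 308 bp downstream in MCM2, 257 bp in MCM3, 349 bp in MCM6 and 279 bp in MCM7. It lay 258 bp downstream in E2F1, 239 bp in PCNA, 339 bp in CDC6 and 248 bp in CDT1. The 8 values span 239 to 349 bp. MCM4 and MCM5 had their strongest region outside the gene, with summits at -1154 and -581 bp from the gene end, and a weaker one inside it, with summits at 415 and 318 bp. Weaker regions also lay upstream of a start in MCM7 (summit at -566 bp), PCNA (-523 bp) and CDT1 (-555 bp). Of 6233 protein-coding genes with a shNIT2 region within 1 kb of a start, 72.4% had this summit downstream, with a median over all of 288 bp and quartiles of -202 and 421 bp. A summit between 200 and 400 bp downstream, a band chosen after the values were seen, was found in 8 of the 8 and in 36.8% of the 6233. For genes with several starts the nearest one was used, which concerns MCM7 (3 starts) and PCNA (2 starts).

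**Figure D2:**
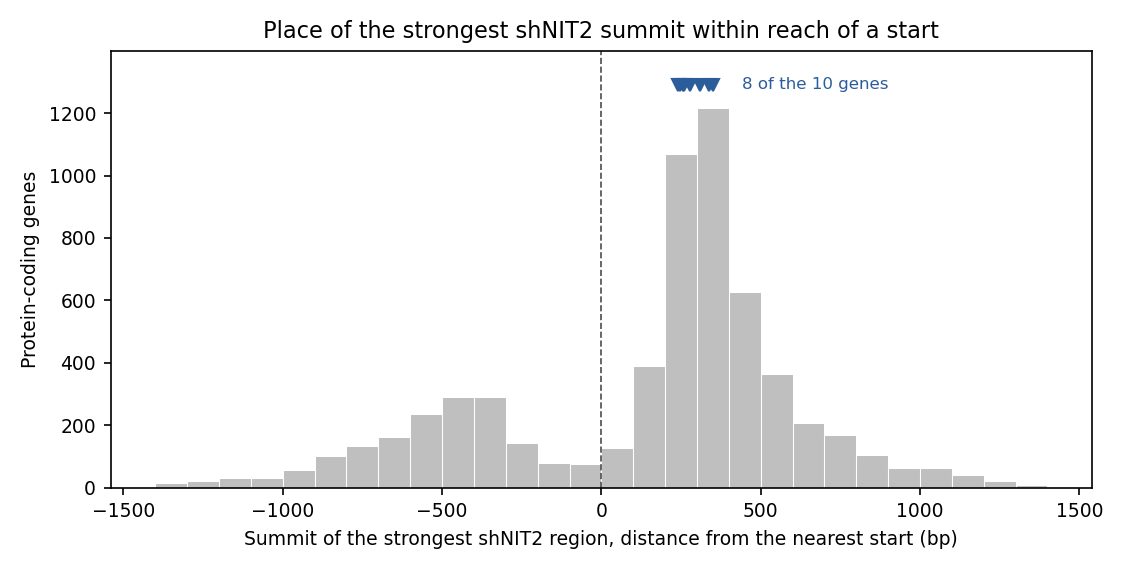
Grey bars count protein-coding genes by the distance in bp from the nearest start to the summit of their strongest shNIT2 region (bins of 100 bp, 6233 genes, 86 of them outside the plotted range), and blue triangles mark the 8 genes of the set that have a start in the table. All the triangles lie between 239 and 349 bp, within the highest bars, and a lower set of genes lies upstream of the start.

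The start base itself was mostly outside the called regions. Of the 8 genes with a listed start, 1 had a start covered by a shNIT2 region (MCM7), against 22.3% of the 6233 genes. An uncovered start with a region on each side within 1 kb was found in 3 of the 8, MCM7, PCNA and CDT1, against 22.2% of the 6233. The gap between the flanking regions was 330 bp in MCM7, 359 bp in PCNA and 292 bp in CDT1. At MCM5 a gap of 356 bp and at MCM4 a gap of 973 bp held the lower end of the gene in the same way.

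**Figure D3:**
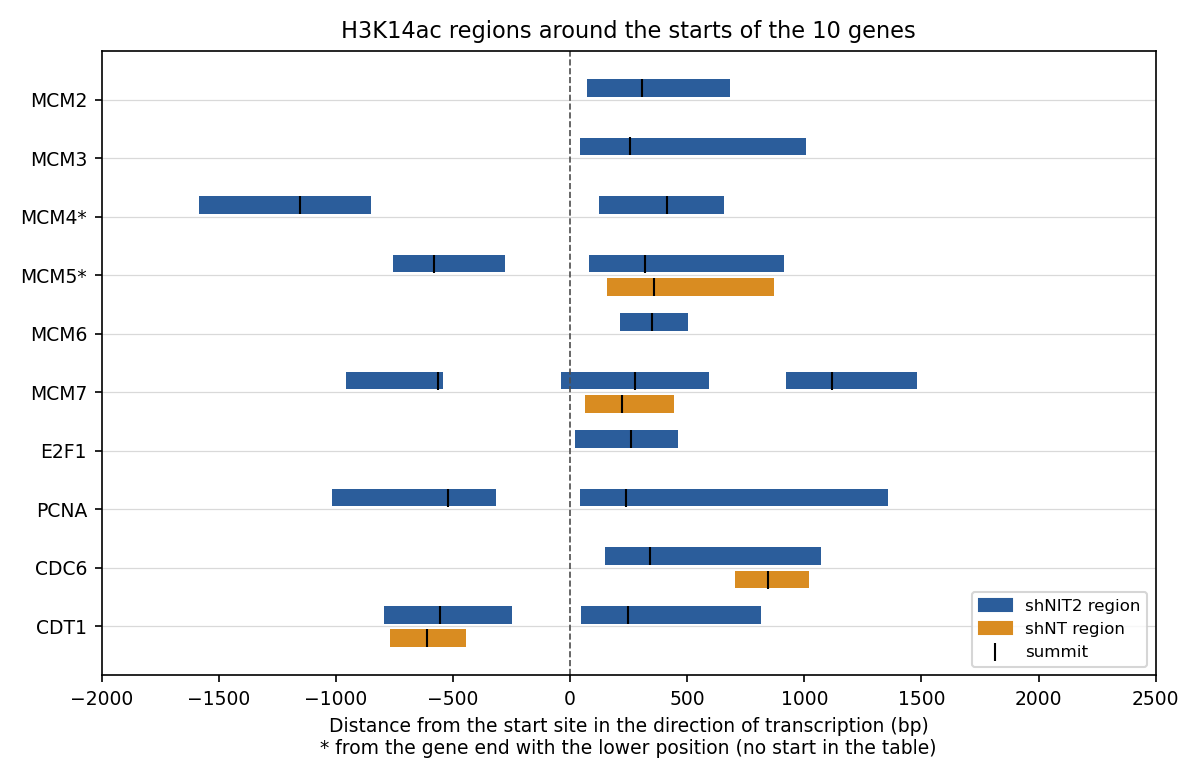
Called regions of the shNIT2 list (blue) and the shNT list (orange) are drawn for each gene by distance in bp from its start in the direction of transcription, with a black tick at each summit. MCM7 is drawn from its outermost start, PCNA from its inner start, and MCM4 and MCM5 from the gene end with the lower position. Every gene has a blue region that crosses the line at 0 or begins at most 215 bp downstream of it, and 4 genes have an orange region. Regions deep inside MCM3 and MCM5 lie outside the plotted range.

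The promoters of these genes are shown because the regions border them and because E2F binding sites are a known trait of the family. The search used 4 words of the E2F site, TTTCCCGC, TTTCGCGC, TTTGCCGC and TTTGGCGC, on both strands, from 250 bases before to 50 bases after each start, and overlapping matches were joined into 1 stretch. The words were chosen with these genes in view, so the count is a description. All 8 genes with an entry held such a word at 1 start at least, against 5.4% of 15843 protein-coding genes. By start, it was 8 of 11 against 4.1% of 22199 protein-coding promoters and 3.31% of all 35116 promoters in the table. The share was 5.58% of the 8208 protein-coding promoters with a shNIT2 region within 1 kb and 3.23% of the 13991 without one. CCAAT or its reverse ATTGG was found at 9 of the 11 starts and at 34.7% of protein-coding promoters. The 11 promoters had a median G+C content of 68% and a median of 33 CpG dinucleotides in 300 bases, against 67% and 28 in the promoters with a shNIT2 region. A match of letters does not show that a factor binds there. Other forms of the E2F site were not searched, so a promoter without a match may still hold one.

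The 250 bases upstream of the start are printed below for the 5 genes whose marked start had a whole E2F stretch upstream of it, 5′ to 3′ on the strand of the gene, with the E2F words in capitals. They lie at chr6:52284743-52284992 on the minus strand (MCM3), chr2:135876444-135876693 on the minus strand (MCM6), chr7:100101398-100101647 on the minus strand (MCM7), chr20:33686386-33686635 on the minus strand (E2F1) and chr16:88803539-88803788 on the plus strand (CDT1).
MCM3: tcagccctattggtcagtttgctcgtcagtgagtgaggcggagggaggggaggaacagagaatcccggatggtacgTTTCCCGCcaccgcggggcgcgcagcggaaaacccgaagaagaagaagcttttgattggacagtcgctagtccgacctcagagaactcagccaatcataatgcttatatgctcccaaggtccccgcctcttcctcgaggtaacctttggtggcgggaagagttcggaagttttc
MCM6: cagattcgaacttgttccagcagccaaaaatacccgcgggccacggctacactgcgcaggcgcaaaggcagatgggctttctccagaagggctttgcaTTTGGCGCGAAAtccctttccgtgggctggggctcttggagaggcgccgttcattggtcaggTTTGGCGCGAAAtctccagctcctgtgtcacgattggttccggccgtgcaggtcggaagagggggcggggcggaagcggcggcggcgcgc
MCM7: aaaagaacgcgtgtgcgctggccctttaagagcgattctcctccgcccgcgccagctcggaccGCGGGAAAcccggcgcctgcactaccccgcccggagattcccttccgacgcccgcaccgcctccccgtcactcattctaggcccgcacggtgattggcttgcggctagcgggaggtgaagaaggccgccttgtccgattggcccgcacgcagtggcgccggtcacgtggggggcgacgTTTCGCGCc
E2F1: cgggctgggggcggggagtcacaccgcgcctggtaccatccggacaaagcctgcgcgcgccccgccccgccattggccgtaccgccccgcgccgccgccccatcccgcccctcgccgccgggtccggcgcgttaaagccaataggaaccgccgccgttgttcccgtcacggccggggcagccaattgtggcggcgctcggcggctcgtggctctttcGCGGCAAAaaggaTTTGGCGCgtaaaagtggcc
CDT1: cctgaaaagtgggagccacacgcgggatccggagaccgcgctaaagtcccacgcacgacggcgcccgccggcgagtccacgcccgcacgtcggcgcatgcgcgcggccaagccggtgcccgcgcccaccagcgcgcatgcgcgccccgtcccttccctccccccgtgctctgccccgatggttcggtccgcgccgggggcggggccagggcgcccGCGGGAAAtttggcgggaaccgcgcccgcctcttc
MCM6 shows the stretch TTTGGCGCGAAA at 2 places, the first bases lying at -152 and -90 from the start. MCM7 has GCGGGAAA at -187 and TTTCGCGC at -9, and E2F1 has GCGGCAAA at -33 and TTTGGCGC at -20. CDT1 has GCGGGAAA at -35, and MCM3 has TTTCCCGC at -174 and a second match that runs over the start and is not in capitals above. In MCM2 and CDC6 the only match began after the start, at base 2 (TTTCGCGCGAAA) and base 7 (TTTGGCGC). PCNA held GCGGGAAA at -59 from its outer start, 5126622, which had no shNIT2 region within 1 kb, and no E2F word at its inner start, 5119958, which did.

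Among the licensing factors, CDC6 and CDT1 were marked in both lists, CDC6 weakly and CDT1 strongly in the shNIT2 list. CDC6 (chromosome 17, 40287879 to 40304657), the ATPase that recruits the helicase to origins, had 1 shNIT2 region from 40288030 to 40288949 with 27 fragments over a background of 8.17, a fold of 3.05. That is the lowest of the 10 genes, and 5.69% of all genes marked in the shNIT2 list had a strongest region at or below it. Its background was higher than that of most regions, at the 93.2 percentile of the list. The shNT region of CDC6, from 40288583 to 40288900, had 8 fragments over 0.489, a fold of 6.04, and lay whole inside the shNIT2 region with its summit 505 bp further into the gene. Folds of the lists are not compared with each other, since the pseudocount of 1 in them weighs more in the shallower library. CDT1 (chromosome 16, 88803789 to 88809258), the partner of CDC6 that geminin inhibits, had 2 shNIT2 regions. The stronger, from 88803834 to 88804602 inside the gene, had 45 fragments and a fold of 11.8, at the 96.2 percentile of all shNIT2 regions. The other, from 88802995 to 88803541 upstream of the start, had 23 fragments and a fold of 4.57. The shNT region of CDT1 overlapped this upstream one by 327 bp, with 6 fragments, a fold of 5.48 and a summit 57 bp away. The strongest shNIT2 region of CDT1 therefore had no counterpart in the shNT list, while the weaker one had. The gene APRT lies 81 bp beyond CDT1, and no region of either list lay within 1 kb of that end of CDT1.

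The 6 helicase genes ranged from 3.34-fold in MCM6 to 27.8-fold in MCM7 in the shNIT2 list, with a median strongest fold of 6.33, against 5.17 over all genes marked in that list. For all 10 genes the median was 6.94. MCM7 (chromosome 7, 100092728 to 100101397) had 3 shNIT2 regions. The strongest, from 100100806 to 100101435, had 150 fragments over a background of 4.42, a fold of 27.8, and 99.6% of all genes marked in the list had a strongest region at or below it. The shNT region from 100100952 to 100101335 lay whole inside it, with 8 fragments over 0.551, a fold of 5.8 and a summit 59 bp away. The region is shared with AP4M1, an adaptor protein subunit gene that runs the opposite way and overlaps the start of MCM7. Its summit lay 279 bp downstream of the outer MCM7 start and 324 bp downstream of an AP4M1 start, so it cannot be assigned to either gene. The other MCM7 regions had 35 fragments (3.87-fold, 248 bp downstream of the innermost start) and 15 fragments (2.86-fold, upstream of the gene and inside AP4M1). MCM7 also hosts the hairpins of MIR25, MIR93 and MIR106B, a cluster of cell cycle microRNAs, in its body. No region touched them, the nearest shNIT2 region lying 3977, 4185 and 4410 bp away.

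MCM2, MCM3 and MCM5 formed the middle of the range. MCM2 (chromosome 3, 127598411 to 127622436) had 1 shNIT2 region from 127598482 to 127599092 with 58 fragments and a fold of 7.56. It began 71 bp inside the gene, and the divergent gene TPRA1 begins 180 bp from MCM2 on the other side. The nearest shNT region was 49871 bp from the gene. MCM3 (chromosome 6, 52264015 to 52284742) had its strongest region at the start, from 52283734 to 52284698, with 58 fragments and a fold of 6.33. It was the only one of the 10 genes with shNIT2 regions far from every listed start and gene end. Their summits lay 12360 bp (39 fragments, 4.03-fold) and 13178 bp (33 fragments, 2.72-fold) from the start. Their backgrounds, 8.93 and 11.5, stood at the 96.2 and 98.8 percentiles of the list. That of the MCM3 region at the start, 8.32, was also high, at the 94.7 percentile. The nearest shNT region was 42580 bp away. MCM5 (chromosome 22, 35400140 to 35455031) had 2 shNIT2 regions of like strength. The one outside the gene had 21 fragments (6.32-fold) and the one inside had 23 (5.73-fold). The inner one held the whole of a shNT region of 3 fragments (3.13-fold, summit 41 bp away), the lowest pileup that list contains. A second shNT region of MCM5, from 35405726 to 35406031, had 4 fragments and no shNIT2 counterpart.

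MCM4 and MCM6 had the fewest fragments at their strongest shNIT2 region. MCM4 (chromosome 8, 47960941 to 47978160) had 14 fragments in a region inside the gene (4.31-fold) and 19 in a region outside it (5.75-fold), both over the floor of 2.48. The outer region lay in PRKDC, the gene of the DNA-dependent protein kinase, which begins 805 bp away, so it may belong to that gene. A shNT region with 8 fragments (7.04-fold) overlapped this outer region by 346 bp but ended 1240 bp from MCM4, just beyond the 1 kb limit. MCM4 therefore counts as marked in the shNIT2 list alone only through that limit. MCM6 (chromosome 2, 135839626 to 135876443) had 1 narrow shNIT2 region of 289 bp, from 135875940 to 135876228, with 13 fragments over 3.19 and a fold of 3.34. Of all genes marked in the list, 10.7% had a strongest region at or below it, and the nearest shNT region was 97356 bp away. The strongest regions at the genes of 1 hexamer thus ranged from 13 to 150 fragments in the same library. The highest is the region that MCM7 shares with AP4M1, and the next, in MCM2 and MCM3, had 58 fragments each. Local backgrounds differed too, at 6.81 in MCM2 and 8.32 in MCM3 against 2.48 in MCM4 and 3.19 in MCM6. The order by fragments is therefore not the order by enrichment alone, and in fold MCM4 (5.75) lay near MCM3 (6.33).

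E2F1 and PCNA were marked in the shNIT2 list alone and at like strength. E2F1 (chromosome 20, 33675477 to 33686385) had 1 region from 33685926 to 33686365 with 53 fragments over 5.45, a fold of 8.38, above 81.8% of marked genes or level with them. It lay 20 to 459 bp inside the gene, and the nearest shNT region was 22933 bp away. PCNA (chromosome 20, 5114953 to 5126622) has 2 annotated starts, and both of its regions flanked the inner one. The region downstream, from 5118599 to 5119914, had 42 fragments and a fold of 8.57, and at 1316 bp it was the widest of the 10 genes, against a list median of 573 bp. The region upstream had 34 fragments and a fold of 5.19. The downstream region also overlaps the antisense RNA gene PCNA-AS1, whose start lies 133 bp from the summit. The nearest shNT region was 6706 bp from PCNA. The outer start, near the lipid enzyme gene CDS2, carried no region in either list within 1 kb.

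**Figure D4:**
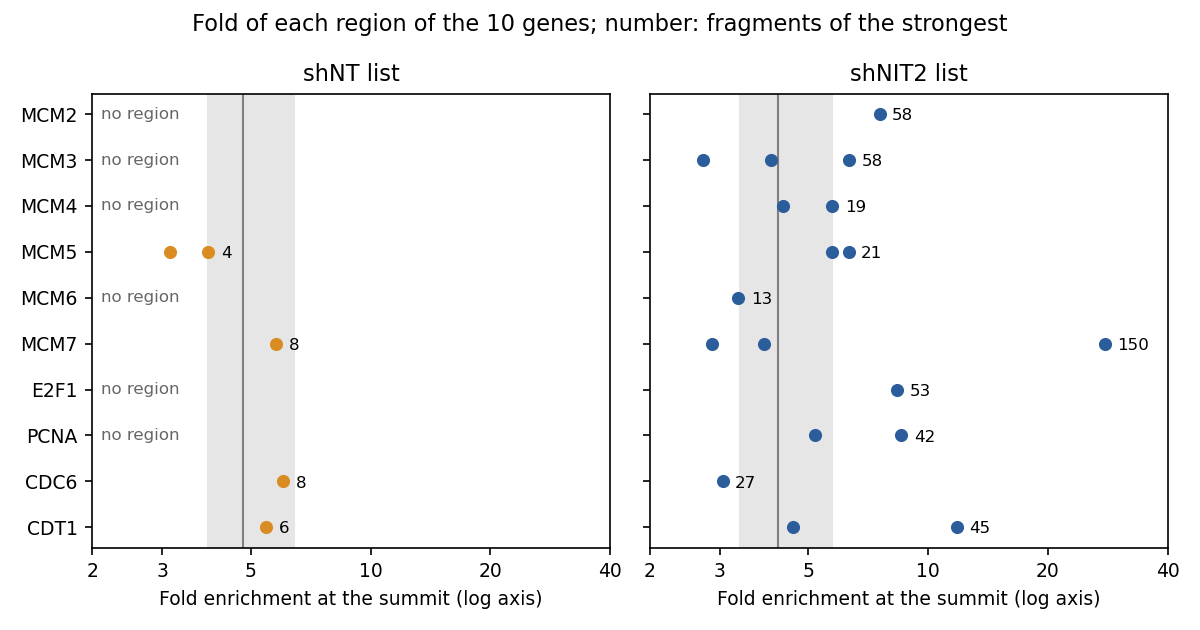
Each point is 1 called region of a gene at its fold enrichment (log axis) in the shNT list (left) or the shNIT2 list (right). The number beside the strongest point gives its fragments at the summit, the grey band the quartiles and the grey line the median over all regions of that list. In the shNIT2 list MCM7 stands apart at 27.8-fold with 150 fragments, in a region shared with AP4M1, and CDC6 is lowest at 3.05-fold. The strongest shNT points of the 4 marked genes rest on 4 to 8 fragments.

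Of the 18 shNIT2 regions on the 10 genes, 5 overlapped a shNT region, against 11.7% of all 28187 shNIT2 regions: those of MCM5, MCM7, CDC6, the upstream one of CDT1 and the outer one of MCM4, whose shNT partner lay beyond the limit for that gene. Of the 5 shNT regions on the genes, 4 overlapped a shNIT2 region, against 9.06% of all 39876 shNT regions, and the exception was the second one of MCM5. Both shares cover regions anywhere in the genome, whereas these 4 lay within 1 kb of a start or gene end. Near starts the lists met far more often. Of 976 genes with a shNT region within 1 kb of a listed start, 832 also had a shNIT2 region within 1 kb of one, overlapping or not. The summits of the overlapping pairs were 41 to 59 bp apart in MCM5, MCM7 and CDT1, 212 bp in MCM4 and 505 bp in CDC6. Within 1 kb of a listed start, 3 of the 8 genes had a shNT region, MCM7, CDC6 and CDT1, against 6.16% of 15843 genes and 13.3% of the 6233 genes with a shNIT2 region there. These rest on 8, 8 and 6 fragments, at most 2 above the list's median.

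The other genes of the pathway, 78 in 6 groups by role, were marked in 59 cases (75.6%) in the shNIT2 list and 26 (33.3%) in the shNT list, against 47% and 28.5% of all genes. The 78 genes were longer, with a median span of 33380 bp against 24115 bp, and no share among genes of like span was taken for them. They too were chosen with earlier results of these data known. Both lists marked 23, the shNIT2 list alone 36, the shNT list alone 3 and neither list 16. A gene marked in both need not have overlapping regions, and overlaps were not counted for this list. The strongest regions of the lists overlapped in ORC2 and E2F3, for example, but lay apart in GINS1 and TOPBP1. Their median strongest fold in the shNIT2 list was 4.42, below the 5.17 of all marked genes, while that of the 10 genes, 6.94, was above it. Within 1 kb of a start, or of a gene end where no start was listed, 50 of the 78 had a shNIT2 region and 6 a shNT region, against 37.6% and 6.16% of all 20037 genes. For the 10 genes these counts were 10 and 4.

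Origin recognition, licensing control and the further MCM proteins had 8 of 11 genes marked in the shNIT2 list. ORC2, a subunit of the origin recognition complex, was highest at 15.4-fold with 64 fragments and ORC1, an ATPase subunit, lowest at 2.74-fold. The ORC2 region, from 200943587 to 200944681, lay away from both ends of the gene (200908977 to 200963660). ORC4, ORC5 and MCM10 had no shNIT2 region. The 4 genes marked in the shNT list were ORC2 at 8.66-fold with 11 fragments, ORC3 at 3.91-fold, the MCM-binding protein gene MCMBP at 3.47-fold and MCM8 at 3.01-fold. Genes of helicase activation had 11 of 16 marked in the shNIT2 list, from WDHD1 at 3.12-fold to TOPBP1, a scaffold of origin firing, at 6.96-fold. GINS2, GINS4, CDC7, RECQL4 and MTBP had none. In the shNT list 6 were marked, the highest being WDHD1 (6.45-fold), TIMELESS (4.33-fold), TICRR (4.04-fold) and GINS1 (3.78-fold), and GINS2 was marked there alone, on 3 fragments.

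Genes of the fork polymerases and of the loading of the clamp had 18 of 22 marked in the shNIT2 list, from POLE3 at 2.52-fold to RFC2, a clamp loader subunit, at 9.43-fold. POLE4, RFC3, LIG1 and RPA1 had none. In the shNT list 6 were marked, led by RFC1 (5.48-fold), POLA2 and RFC3 (both 4.7-fold) and PRIM1 (4.33-fold), and RFC3 was marked there alone. E2F, DP and pocket protein genes had 10 of 12 marked in the shNIT2 list. E2F3, an activating E2F, was highest at 21.5-fold with 111 fragments and the pocket protein gene RBL1 lowest at 3.26-fold, while E2F8 and TFDP2 had no region. In the shNT list RB1 (6.26-fold), E2F3 (5.74-fold), E2F2 (4.51-fold) and TFDP2 (4.43-fold) led the 5 marked genes, TFDP2 being marked there alone.

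Cyclins, their kinases and the phosphatase CDC25A had 9 of 10 genes marked in the shNIT2 list, from CCND3 at 3.2-fold to CDK6, a G1 kinase, at 10.4-fold. The CDK6 region, from 92696022 to 92698568, lay away from both ends of the gene (92604921 to 92836573). CCNA2, the S-phase cyclin, had no region. CDK6 (7.08-fold), CCND3 (4.55-fold), CCNE2 (3.91-fold) and CDC25A (2.98-fold) were marked in the shNT list. The inhibitors of these kinases had 3 of 7 marked in the shNIT2 list, near the share of all genes. CDKN1A, the p21 gene, was highest at 15.3-fold with 68 fragments and CDKN2D lowest at 4.21-fold. CDKN1C, CDKN2A, CDKN2B and CDKN2C had none, and CDKN1A alone was marked in the shNT list, at 4.51-fold.

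**Figure D5:**
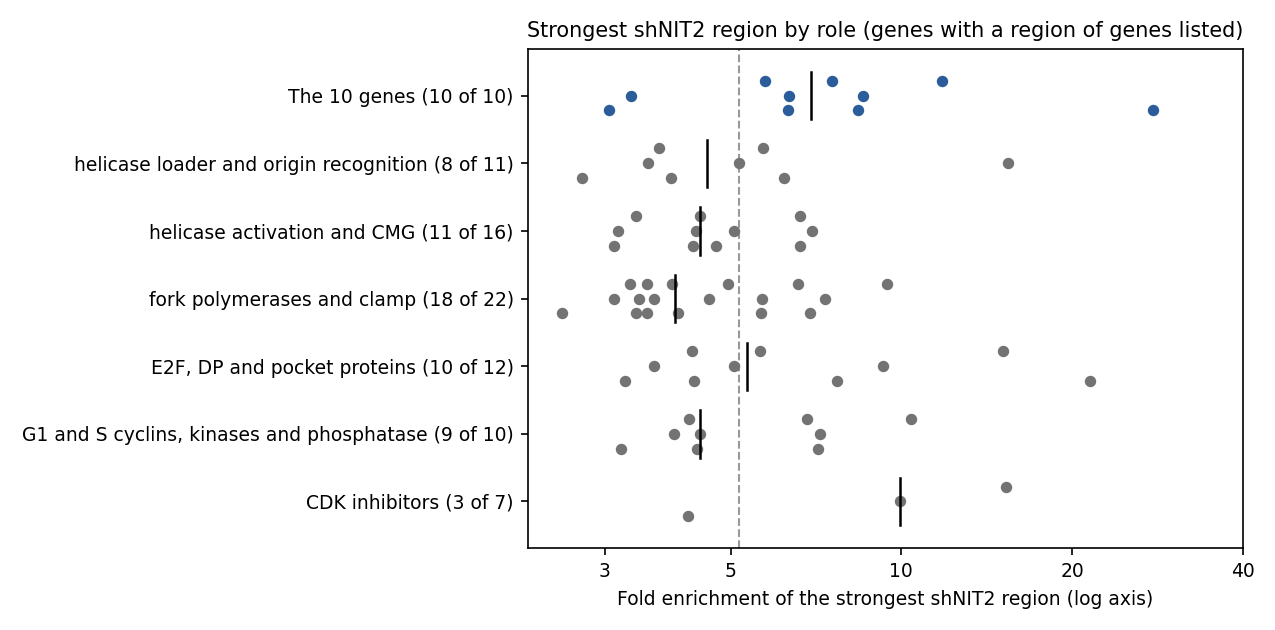
Points give the fold enrichment (log axis) of the strongest shNIT2 region of each marked gene, by role, with the number of marked genes of those listed in the row name, a black line at each row's median and a dashed line at the median over all marked genes, 5.17. The 10 genes have a median of 6.94 and reach highest, to 27.8-fold in MCM7, in a region shared with AP4M1. The kinase inhibitors have the fewest marked genes, 3 of 7.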

How the data were processed

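Per the labels' protocols, reads were single-end. The submitters' processing notes list MACS2 2.1.1, Bowtie2 2.2.6, Trimmomatic 0.35, cutadapt 1.9.1, ChIPseeker, FastQC and the build hg38, without their roles. The use of the inputs as control and the handling of duplicates are not given in the sources used here. Per region, the authors deposited a score (10 times the −log10 q-value, cut to a whole number), a fold enrichment (a ratio at the summit, with a pseudocount of 1), the −log10 p-value and q-value, and the summit's place. The lowest deposited −log10 q was 1.30 in both lists.

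Scripts (Python 3.11.15, pandas 2.3.3, scipy 1.17.1) overlapped regions with RefSeq genes of GRCh38.p14. Fragments and background were solved from the deposited fold and −log10 p by the Poisson tail, within 0.1% for 99.96% of regions, and tested on simulated data (97.5% of 1903 recovered). Exons and introns were not distinguished. Positions are 1-based on hg38. All 10 members are named. Of the 78 pathway genes the text names, per role, the highest and lowest shNIT2 fold, those without a shNIT2 region and up to 4 with the highest shNT fold. Members and lists were chosen with earlier results of these data known.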

Additional observations from a re-analysis of the deposited data

How the results depend on the processing

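Of 56 values under the alternatives, over 9 counts, 36 were within 1.5 times of the value reported and 20 were not. Of the 10 genes, the shNIT2 list marked 10 as deposited and between 7 and 10 under every alternative run, and the lowest count came at −log10 q of at least 10. Its share of all genes ran from 22.7%, at that threshold, to 49.1%, with a 3 kb extension. The shNT list marked 4 as deposited, 2 at −log10 q of at least 5 and 0 at 10, and of all genes 28.5%, 5.93% and 1.03%. Both lists marked 4 as deposited, 1 and 0 at these thresholds, and 2 at a fold of at least 5. With a 3 kb extension MCM4 joined the shNT list, and with none CDT1 left it. Regions on the 10 genes fell from 18 to 10 in the shNIT2 list at −log10 q of at least 10 and to 10 at a fold of at least 5. In the shNT list they fell from 5 to 2 and 0 at −log10 q of at least 5 and 10, to 3 at a fold of at least 5 and to 3 among the 20000 strongest regions. Shared shNIT2 regions fell from 5 to 3 with a 50% reciprocal overlap and to 3 with summits within 200 bp. Of the 78 pathway genes, the shNIT2 list marked 24 at −log10 q of at least 10 and 26 at a fold of at least 5. Of all genes it marked 22.7% and 24.9% at these settings. The shNT list marked 5 and 1 at −log10 q of at least 5 and 10, 6 at a fold of at least 5, 6 among the 20000 strongest regions and 6 within 1 kb of a start. Of all genes it marked 5.93% and 1.03% at these −log10 q thresholds. The shares of all genes were 10.4% at that fold, 11% among the 20000 strongest regions and 6.16% within 1 kb of a start. Stricter thresholds and windows leave fewer regions by construction, and the part of depth was not tested. No paired analysis was possible because each group has 1 library.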
